A study of Mus musculus with 8 samples.

Results

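The genes of mouse chromosome 14, the chromosome that carries Abcc4, were examined in whole retinas of aged mice. Abcc4 encodes the transporter MRP4 and is the gene targeted in the knockout line. A probe was a member when its accession named a gene on chromosome 14 in the gene table. By rule 20 genes, Abcc4 among them, were left out, and Abcc4 served only as the check of the label and as the anchor of gene order. This gave 808 of the 22911 named genes on the array, with 1146 of the 32994 named probes. Of these, 539 genes with 786 probes were retained, because under 1 label or both they were well above background wherever they had been measured. The remaining members have no level or comparison here. Members were taken in the order of their gene starts in the gene table, and distances were counted in tested genes, not in bases.

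Each of 8 one-color Agilent arrays held the retinal RNA of 1 sample, 4 labelled as homozygous Mrp4 knockout (Mrp4-null) and 4 as wild-type (WT). All mice were 46 to 55 weeks old per the labels, and according to the methods the knockout line was kept on a C57BL/6J background. The strain in which the allele was made and the number of mice behind each sample are not given plainly in the sources used here, so p-values measure the spread between these samples, which may be technical or may come from pools. The knockout is carried by every cell of the animal, and the tissue mixes all retinal cell types. In such tissue, fewer cells of a type and less RNA per cell cannot be told apart.

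Values below are log2 signals after quantile normalization, and differences are the arrays labelled Mrp4-null minus the wild-type arrays. Calls required a limma p under 0.05, adjusted over all 37085 retained probes, together with a fold change of 1.5 or more. The targeted gene went against its label. The Abcc4 probe was at 10.84, 10.71, 10.64 and 10.80 under the Mrp4-null label and at 6.62, 7.13, 6.54 and 7.02 in wild-type. The difference was 3.92 (standard error 0.14, adjusted p = 1.36e-05). Where this probe lies relative to the deleted part of the gene is not given in the sources used here. Every direction below therefore follows the labels as deposited.

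Other checks compared the arrays by marker genes, and their bearing on single members was not tested. The 13 retina markers, among them Sag and Pax6, averaged 14.50 to 14.61 on Mrp4-null-labelled arrays and 14.46 to 14.52 on the others. Lens markers averaged 6.25 to 9.04 and 7.74 to 10.31, and none of the 10 was called. Xist was above background on 4 arrays labelled Mrp4-null and on 2 wild-type arrays. Signal from the Y chromosome was above background on 0 and 3 arrays. Wild-type array 2 held both Xist and Y-linked signal above background. Sex-linked signal thus differed between the labels. Results without wild-type arrays 3 and 4, which lacked Xist, are given beside the overall count and, for blocks and lists, in the last section. The genotypes sat in different rows of 1 slide, so row and genotype cannot be told apart.

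MRP4 is an ATP-binding cassette transporter that exports cyclic nucleotides, prostaglandins, conjugated steroids and many drugs from cells, and in the retina it has been placed in the endothelium of blood vessels. Genes that lie close together on a chromosome tend to be inherited together, and otherwise they need share no function. Mouse chromosome 14 carries photoreceptor, neuronal, immune and housekeeping genes side by side, as well as clusters of olfactory receptor, granzyme and ribonuclease genes.

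Promoters from RefSeq (GRCm38.p6) were available for 3 of the 13 called genes, and they are printed because these genes, Enox1, Pcdh17 and Cldn10, lie in order along the chromosome from the middle of the called region to the far side of Abcc4. The promoter of Tgds, close to Abcc4, is added because its probes did not behave alike. Each runs from 250 bases before to 50 bases after an annotated start. Capitals mark the CCAAT motif and the GC box, both searched on either strand. The GC box was spelled GGGCGG. The motifs did not overlap in these sequences. Enox1 lies at chr14:77156513-77156812 on the plus strand, Pcdh17 at chr14:84443313-84443612 plus, the Cldn10 starts at chr14:118787621-118787920 and chr14:118854700-118854999 plus, and Tgds at chr14:118132716-118133015 minus.
Enox1: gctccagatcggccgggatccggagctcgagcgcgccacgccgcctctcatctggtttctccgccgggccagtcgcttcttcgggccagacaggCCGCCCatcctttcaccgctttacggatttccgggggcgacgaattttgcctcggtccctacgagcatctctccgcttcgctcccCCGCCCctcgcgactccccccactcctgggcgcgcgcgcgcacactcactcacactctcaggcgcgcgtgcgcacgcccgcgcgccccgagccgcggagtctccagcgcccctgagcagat
Pcdh17: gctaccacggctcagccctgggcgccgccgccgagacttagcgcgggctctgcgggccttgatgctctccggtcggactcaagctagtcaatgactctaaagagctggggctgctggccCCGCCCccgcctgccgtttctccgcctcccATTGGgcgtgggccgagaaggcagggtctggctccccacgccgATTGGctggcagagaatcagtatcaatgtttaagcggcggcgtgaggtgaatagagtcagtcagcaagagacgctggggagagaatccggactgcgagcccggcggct
Cldn10, start 1: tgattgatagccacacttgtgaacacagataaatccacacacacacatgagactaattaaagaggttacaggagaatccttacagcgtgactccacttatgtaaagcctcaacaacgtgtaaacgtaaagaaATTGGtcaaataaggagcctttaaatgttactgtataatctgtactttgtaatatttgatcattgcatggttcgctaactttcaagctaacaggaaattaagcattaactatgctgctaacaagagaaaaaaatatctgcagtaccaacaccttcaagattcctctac
Cldn10, start 2: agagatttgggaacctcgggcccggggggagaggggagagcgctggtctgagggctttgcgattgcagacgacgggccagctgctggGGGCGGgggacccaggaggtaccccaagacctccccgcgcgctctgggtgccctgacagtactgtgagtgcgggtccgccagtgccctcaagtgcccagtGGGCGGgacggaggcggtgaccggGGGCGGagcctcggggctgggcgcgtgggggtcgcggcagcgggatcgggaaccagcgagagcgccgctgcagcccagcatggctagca
Tgds: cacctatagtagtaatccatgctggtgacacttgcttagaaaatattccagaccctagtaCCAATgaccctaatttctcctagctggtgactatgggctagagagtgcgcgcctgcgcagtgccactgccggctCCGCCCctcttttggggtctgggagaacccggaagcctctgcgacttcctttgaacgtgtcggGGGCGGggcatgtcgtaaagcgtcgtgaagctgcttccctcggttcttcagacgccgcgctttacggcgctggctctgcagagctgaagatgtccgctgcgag

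The promoters did not look alike. Enox1 held 42 CpG and 2 GC boxes in 300 bases, and Pcdh17 held 26 CpG, 2 CCAAT motifs and 1 GC box. The first Cldn10 start was poor in CpG, with 4 and a single CCAAT motif, while the second held 27 CpG and 3 GC boxes. Tgds held 21 CpG, 1 CCAAT motif and 2 GC boxes. Among all 32851 promoters of the same length the median was 7 CpG, and 37.4% held CCAAT and 35.7% the GC box. Among 530 promoters of 411 tested member genes the shares were 35.1% and 51.1%. The tested members had passed the filter on background, while the 32851 promoters were not filtered. A match is a description of letters and not a binding site.

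Of the 539 tested member genes, 13 were called (2.41%), of which 5 were higher and 8 were lower under the Mrp4-null label. Over all 16093 named genes the share was 0.652%, with 0.311% higher and 0.348% lower, and over the genes of the other chromosomes it was 0.547%. The member shares were 0.928% higher and 1.48% lower. In probes, 14 of 786 members were called (1.78%), 6 higher and 8 lower, against 0.545% of all retained probes, 0.256% higher and 0.289% lower. The called genes were Gm31896, 4930480K23Rik, Pdlim2, Piwil2, Enox1, Pcdh17, Gpc6 and Cldn10 among those that fell, and Tnfrsf10b, Polr3d, Fgf17, Npm2 and Xpo7 among those that rose. The number of higher genes fell to 3 when any one of Mrp4-null arrays 1 or 3 or wild-type arrays 2, 3 or 4 was left out. Without wild-type arrays 3 and 4, on which Xist was not above background, 6 member genes were called, 2 higher and 4 lower. Gm31896, Piwil2, Fgf17 and Cldn10 passed the filter through their bright genotype only, and when every array had to be above background 9 member genes were called, with 0.475% of all probes.

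Over all member probes the differences were small. The median difference over member probes was -0.016, against -0.009 over all retained probes, and the median absolute difference was 0.087 against 0.083. For members as for all probes, the median SD was 0.19 on arrays with the Mrp4-null label and 0.16 on wild-type arrays. The genotypes' arrays did not overlap in 47 member probes (5.98%), 23 higher and 24 lower, and in 4.79% of all retained probes.

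**Figure D1:**
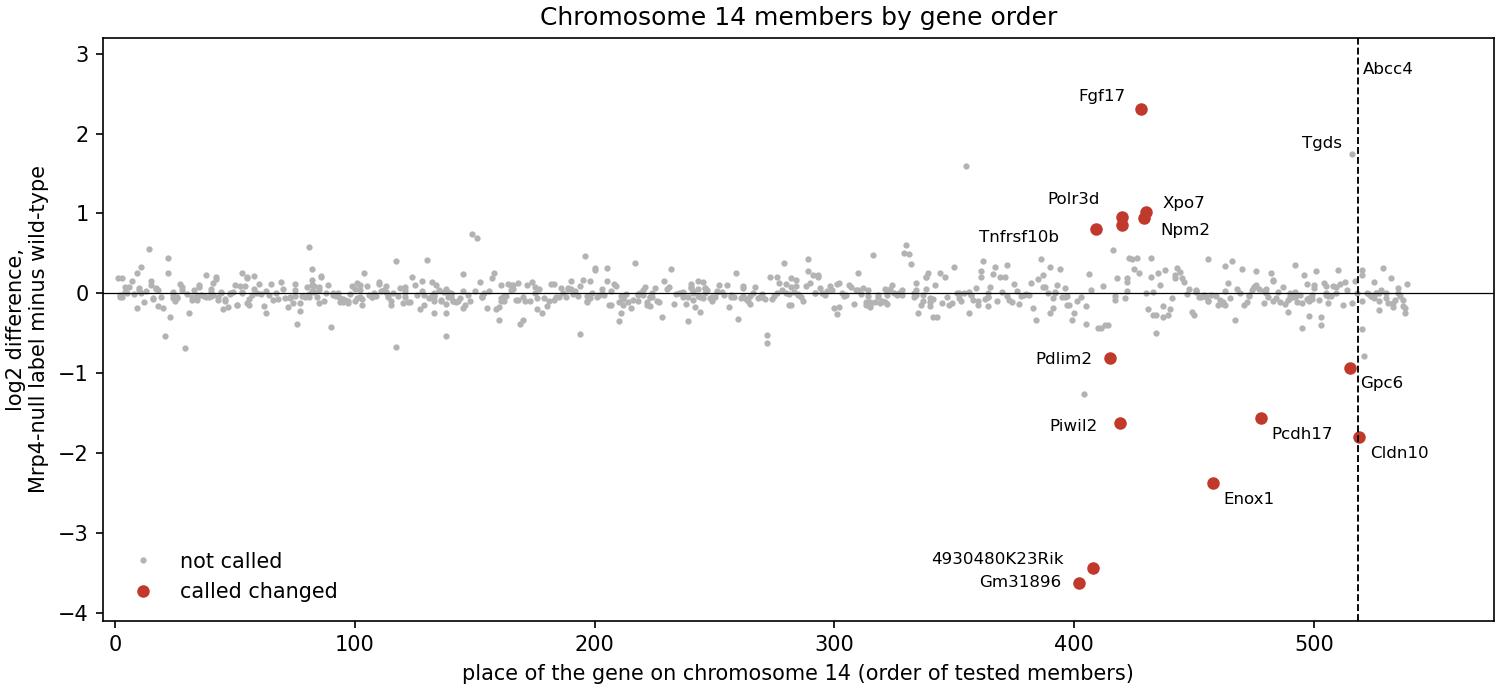
Log2 difference of each retained member probe (y axis, Mrp4-null label minus wild-type) against the place of its gene among the tested members of chromosome 14 (x axis), with Abcc4 as a dashed line. Red points are the 14 called probes, all at or beyond the place of Gm31896, and grey points the rest. The differences of Gm31896, Fgf17 and Cldn10 are fitted values of probes that were not above background on 1 side.

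The called genes lay together along the chromosome. In blocks of 50 tested genes counted outward from Abcc4, none was called in the blocks from Gm5795 to Rp1l1. The block from Gm17116 to Slc39a14 held 4 called genes (8%, against 0.652% of all named genes), 1 higher and 3 lower, and the block from Piwil2 to Mtrf1 held 6 (12%), 4 higher and 2 lower. The last block before Abcc4, from Kbtbd7 to Sox21, held 2 (4%), both lower, and the 21 tested genes beyond Abcc4 held 1 (4.76%), also lower. The block next to Abcc4 thus did not hold the most calls.

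Probes whose arrays did not overlap followed the same course. They made up 22.0% of the 59 probes in the block from Gm17116 to Slc39a14 and 22.7% of the 66 probes from Piwil2 to Mtrf1, where all retained probes gave 4.79%. In the block next to Abcc4 they made up 5.41%, beyond Abcc4 2.94%, and in the earlier blocks between 0% and 5.63%. With blocks of 25 genes, the highest shares were 34.5% from Cdca2 to Slc39a14 and 38.2% from Piwil2 to Lcp1.

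**Figure D2:**
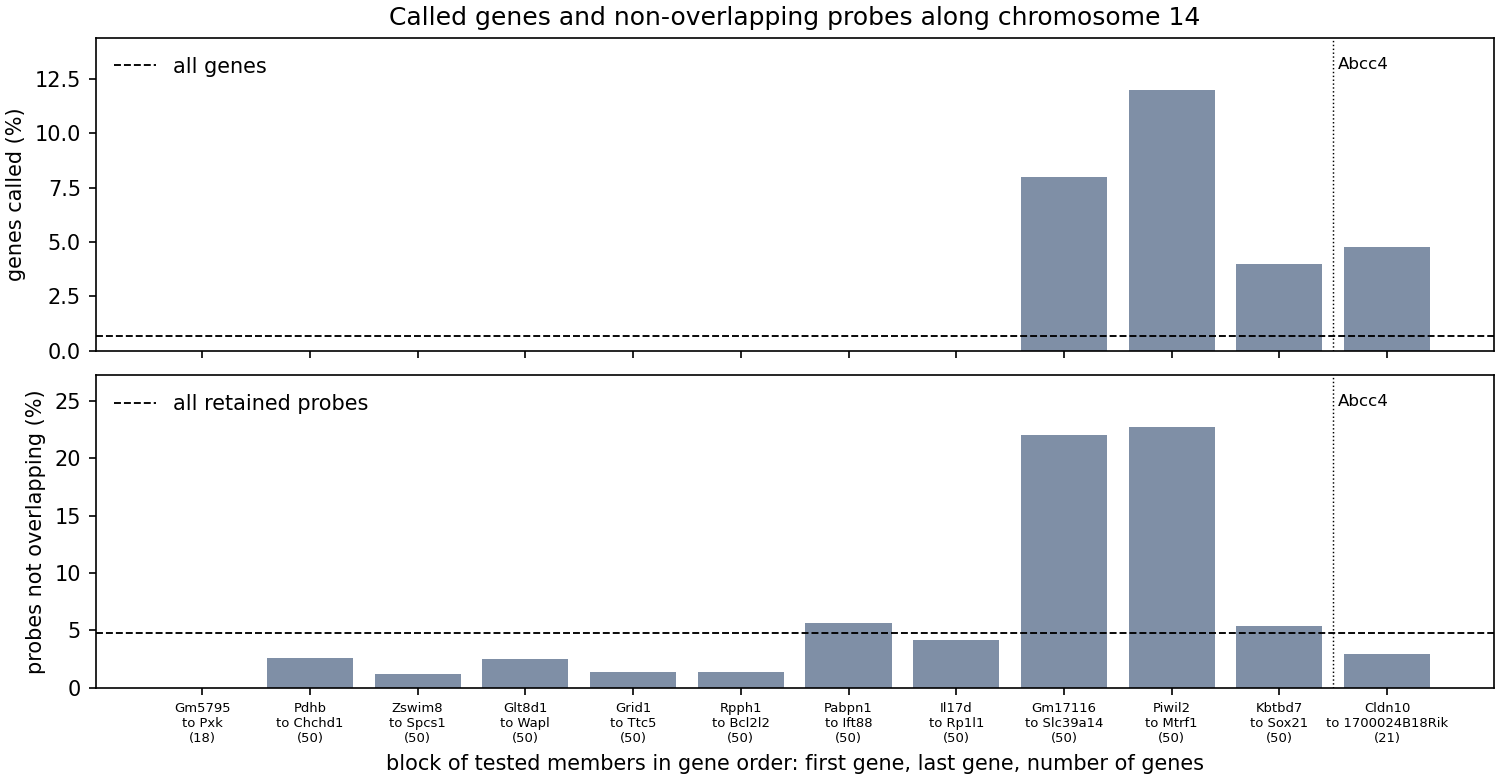
Share of tested member genes that were called (upper panel, percent) and share of retained member probes whose arrays did not overlap between the genotypes (lower panel, percent) in blocks of gene order; the number of genes in a block is in brackets, the dashed line is the share over all genes or probes, and the dotted line is Abcc4. The highest bars, 12% and 22.7%, belong to the block from Piwil2 to Mtrf1, with 50 tested genes between it and Abcc4.

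The densest run went from Gm31896, 117 tested genes before Abcc4, to Xpo7, 89 tested genes before it. Its ends were set by called genes, so its counts are a description. It held 29 tested genes with 35 probes, of which 9 genes were called (31.0%, against 0.652% of all named genes), 5 higher and 4 lower. Gm31896, Piwil2 and Fgf17 among them passed the filter through 1 genotype only, and the other 6 were also called when every array had to be above background. Without wild-type arrays 3 and 4, which lacked Xist, Tnfrsf10b, Pdlim2, Piwil2, Polr3d and Npm2 lost their calls. The genotypes did not overlap in 20 of its probes (57.1%, against 4.79% of all retained probes), 12 higher and 8 lower. Probes that passed the filter through 1 genotype only are among these. The median absolute difference was 0.40 in this run, against 0.08 in the 401 tested genes before it, 0.11 in the 88 genes between Xpo7 and Abcc4 and 0.10 in the 21 genes beyond Abcc4. Of the left-out genes 3, Slc25a37, Entpd4 and Lgi3, lie inside or across this run as well.

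The run opened with a pair of long noncoding RNAs that fell. Gm31896, which overlaps Slc25a37, was at 1.39, 1.39, 1.64 and 2.41 under the Mrp4-null label and at 5.43, 5.13, 5.29 and 5.49 in wild-type. It was above background on no array of the former and on all of the latter, which made it at least 3.78-fold lower (adjusted p = 1.92e-04). 4930480K23Rik was at 5.29, 6.32, 5.81 and 5.03 against 9.40, 8.64, 9.46 and 8.73, a difference of -3.44 (standard error 0.31, adjusted p = 0.00140). Gm31896 passed the filter through the wild-type arrays only. The arrays of 4930480K23Rik did not overlap, and neither call was lost when any single array was left out. With normexp, another background correction, the differences shrank to -0.64 for Gm31896, a smaller fold than the bound above, and to -2.36 for 4930480K23Rik, and both were still called.

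Of the protein-coding genes between them, Gm16867 did not overlap either but was not called. Above background on 3 of 4 arrays labelled Mrp4-null, it too passed the filter through the wild-type arrays only. It was at 3.43, 4.50, 4.17 and 4.32 against 5.55, 4.87, 5.86 and 5.17, a difference of -1.26 (standard error 0.27, adjusted p = 0.145). Loxl2, a lysyl oxidase that cross-links matrix collagen, had 1 probe without overlap at -0.38 and 1 at -0.16. R3hcc1 was at 0.24, and Chmp7, a component of the membrane-remodelling ESCRT machinery, at 0.04 with overlapping arrays.

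Tnfrsf10b, the mouse receptor of the death ligand TRAIL, is the tested gene that follows 4930480K23Rik, and it rose. Its levels were 7.94, 8.01, 8.27 and 7.95 on Mrp4-null-labelled arrays and 7.54, 7.26, 7.08 and 7.09 on the wild-type arrays, a difference of 0.80 (standard error 0.13, adjusted p = 0.0347). Neighbours in gene order were thus called in opposite directions. The arrays did not overlap, but the call held in only 1 of the 8 fits that left out an array, with a difference of 0.72 to 0.90 and an adjusted p of up to 0.142.

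Pdlim2 encodes a PDZ and LIM domain protein that acts as a ubiquitin ligase on nuclear signalling proteins, and it fell. It was at 5.96, 6.21, 6.14 and 5.90 against 6.97, 6.91, 6.77 and 6.80, a difference of -0.81 (standard error 0.10, adjusted p = 0.00753), with no overlap. The call was lost in 5 of 21 alternative fits, with a difference of -0.45 under normexp and an adjusted p of up to 0.214. Its neighbour Sorbs3, the adhesion protein vinexin, was at 6.60, 6.55, 6.70 and 6.43 against 6.07, 6.08, 5.98 and 5.97. The difference of 0.54 had an adjusted p of 0.0280 but stayed under the fold change of 1.5, so it was not called. Rhobtb2, an atypical small GTPase, was at -0.44 (adjusted p = 0.0732) and Ccar2, a regulator of the deacetylase SIRT1, at -0.40 (adjusted p = 0.0795), both without overlap.

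Piwil2, which binds small RNAs that silence transposons in the germ line, fell. It was at 3.10, 3.40, 3.77 and 2.71 under the Mrp4-null label, where it was above background on 1 of 4 arrays, and at 5.06, 4.97, 4.69 and 4.73 in wild-type, a difference of -1.62 (standard error 0.21, adjusted p = 0.0131). Polr3d, a subunit of RNA polymerase III, follows it in gene order and rose on both of its probes. One probe was at 9.34, 9.07, 9.27 and 9.34 against 8.28, 8.58, 8.01 and 8.33, a difference of 0.96 (standard error 0.13, adjusted p = 0.0148). The other was at 10.04, 9.90, 10.06 and 10.17 against 9.24, 9.31, 9.01 and 9.21, a difference of 0.85 (standard error 0.09, adjusted p = 0.00549). The arrays separated on each of these probes, but Piwil2 passed the filter through the wild-type arrays only, which favours such separation. Piwil2 lost its call without Mrp4-null array 1 or wild-type array 1 or 2, with an adjusted p of up to 0.0631. The first Polr3d probe was called in 3 of the 8 such fits, with an adjusted p of up to 0.0659, and the second was called in all 8 but lost its call without wild-type arrays 3 and 4 together (adjusted p = 0.137). With normexp the Piwil2 difference, which rests on a side mostly not above background, was -0.38 and the gene was not called.

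None of the genes between Polr3d and Fgf17 was called. Phyhip was at -0.06 and the 3 probes of Bmp1, the protease that trims procollagen, were at 0.14, 0.19 and 0.03, all with overlapping arrays. Without overlap were Reep4 (0.44, adjusted p = 0.203), which keeps endoplasmic reticulum off chromosomes in mitosis, Hr (0.43, adjusted p = 0.0649), the nuclear corepressor hairless, Nudt18 (0.30, adjusted p = 0.185), which cleans oxidized nucleotides, and Fam160b2 (0.44, adjusted p = 0.0576). Dmtn, a protein of the red cell and synaptic cytoskeleton, was at 0.25 with overlapping arrays.

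The run closed with 3 called neighbours in a row, all higher. Fgf17, a fibroblast growth factor of the developing brain, was at 4.51, 4.08, 3.73 and 4.35 on Mrp4-null-labelled arrays and at 1.64, 1.68, 2.45 and 1.68 on the wild-type arrays. It was above background on none of the latter and was at least 1.37-fold higher (adjusted p = 0.00261). Fgf17 passed the filter through the Mrp4-null label only, and with normexp background correction the difference was 0.32 and the call was lost. Npm2, a histone chaperone known from the oocyte, was at 6.51, 6.31, 6.70 and 6.60 against 5.88, 5.40, 5.40 and 5.66, a difference of 0.94 (standard error 0.13, adjusted p = 0.0204). All arrays of one label lay above all of the other for both genes, but for Fgf17 the filter passed through 1 genotype favours such separation. The Npm2 call held in 2 of the 8 fits that left out an array, with an adjusted p of up to 0.0772.

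Xpo7, a nuclear transport receptor of the exportin family, was called on 1 of its 2 probes. That probe was at 9.55, 9.35, 9.40 and 9.51 against 8.45, 8.52, 8.09 and 8.67, a difference of 1.02 (standard error 0.13, adjusted p = 0.00980). The other was at 10.68, 10.42, 10.59 and 10.77 against 10.52, 10.72, 10.59 and 10.64, a difference of 0.00 (standard error 0.10). Xpo7 overlaps the next gene, Dok2, an adaptor of immune receptors, in the gene table, and the Dok2 probe was at -0.19 (adjusted p = 0.856).

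**Figure D3:**
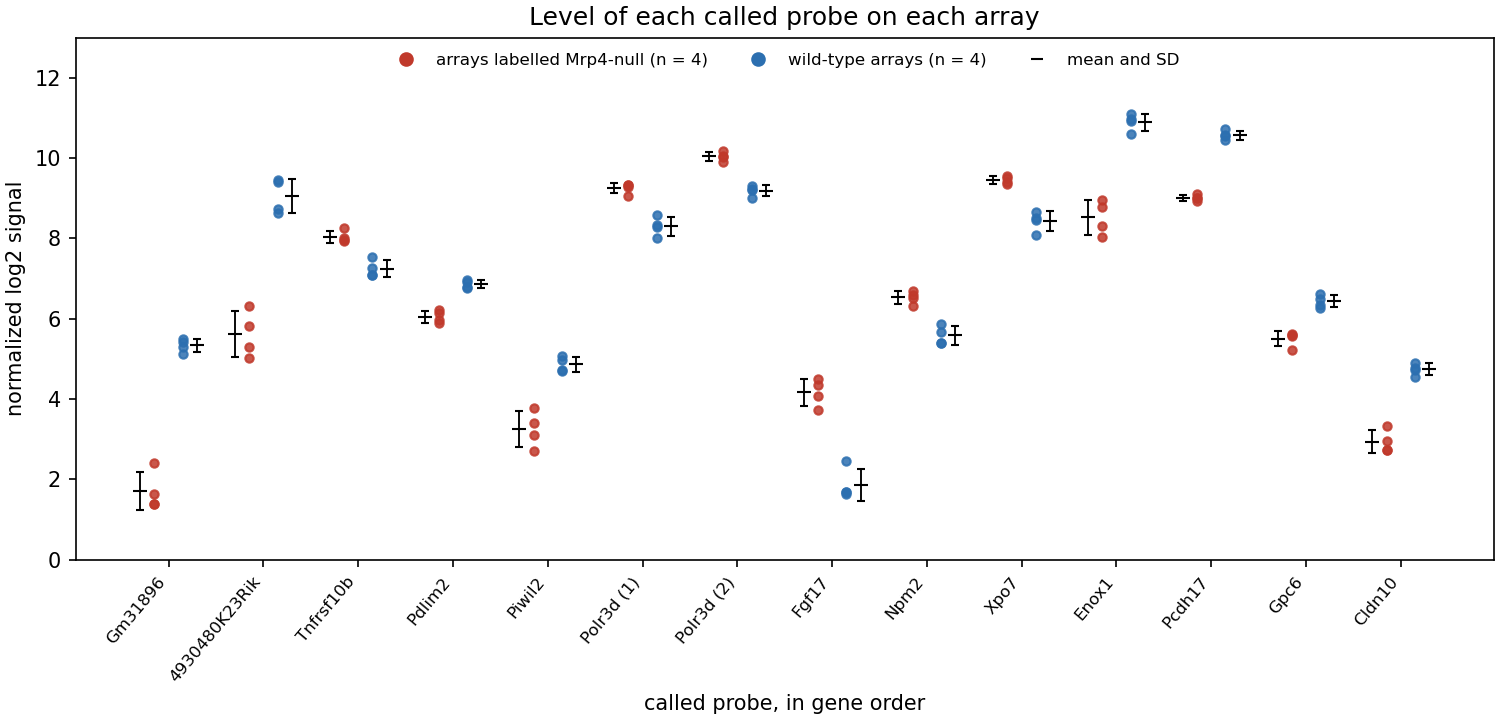
Normalized log2 signal of the 14 called probes (y axis) in gene order (x axis) on each array labelled Mrp4-null (red) and each wild-type array (blue), with the mean and SD of 4 arrays in black. The colours do not overlap for any probe; the low points of Gm31896, Piwil2, Fgf17 and Cldn10 are mostly not above background. Levels of different probes are not comparable with each other.

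Between Xpo7 and Abcc4, 3 of 88 tested genes were called (3.41%, against 0.652% of all named genes), far apart and all lower. Enox1, a cell-surface hydroquinone oxidase whose promoter is printed above, was separated from Xpo7 by 27 tested genes. It was at 8.97, 8.03, 8.30 and 8.79 on Mrp4-null-labelled arrays and at 10.97, 11.10, 10.60 and 10.93 on the wild-type arrays, a difference of -2.38 (standard error 0.21, adjusted p = 0.00143). The lowest wild-type array lay well above the highest array labelled Mrp4-null.

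Pcdh17, a protocadherin of synapses and growing axons, was separated from Enox1 by 19 tested genes. It was at 9.10, 9.00, 8.93 and 9.01 against 10.57, 10.46, 10.54 and 10.72. The difference of -1.56 (standard error 0.08) had the smallest adjusted p of the members, 6.77e-05, and its arrays were the tightest of the called probes under the Mrp4-null label. Enox1 and Pcdh17 were called in all 8 fits that left out an array. The other protocadherins on the chromosome were tested and not called.

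Among the 124 probes of the 88 genes between Xpo7 and Abcc4, 9 did not overlap (7.26%, against 4.79% of all retained probes), 2 higher and 7 lower. Besides the called probes and Tgds, Dok2 was among them, and the others were also small. Naa16, a subunit of an N-terminal acetyltransferase, was at -0.33 (adjusted p = 0.188), Sucla2, a subunit of succinyl-CoA ligase in mitochondria, at -0.27 (adjusted p = 0.580), 1 probe of Rcbtb2 at -0.27 (adjusted p = 0.514) and the noncoding RNA Gm10845 at 0.28 (adjusted p = 0.450).

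Next to Abcc4, the 12 tested members on each side gave 24 genes with 35 probes, of which 2 genes were called (8.33%), both lower, against 0.348% of all named genes called lower. Gpc6, a heparan sulfate proteoglycan anchored in the cell membrane, is the fourth tested gene before Abcc4. It was at 5.61, 5.23, 5.60 and 5.57 against 6.62, 6.28, 6.35 and 6.49, a difference of -0.93 (standard error 0.12, adjusted p = 0.0102). Cldn10, a claudin that forms paracellular ion channels in tight junctions, is the first tested gene beyond Abcc4. It was at 2.74, 3.33, 2.74 and 2.95 under the Mrp4-null label, above background on none of these arrays, and at 4.55, 4.90, 4.78 and 4.73 in wild-type. This made it at least 2.50-fold lower (adjusted p = 8.46e-04), although it passed the filter through the wild-type arrays only. The arrays of both genes separated fully, but for Cldn10 the filter passed through 1 genotype favours such separation. With normexp the differences of Gpc6 and Cldn10 were -0.44 and -0.33 and neither was called. For Cldn10 this is a smaller fold than the bound above. Gpc6 also lost its call without wild-type array 4 (adjusted p = 0.0548), and Cldn10 kept it without any single array but not without wild-type arrays 3 and 4 (adjusted p = 0.0715).

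No other gene there was called. The synaptic adhesion genes Slitrk1, Slitrk6 and Slitrk5 were at 0.12, -0.15 and 0.14, with standard errors of 0.20, 0.09 and 0.08. Gpr180 was at 0.15 (standard error 0.08) and the transcription factor Sox21, the nearest tested gene before Abcc4, at 0.00 (standard error 0.22). Beyond Cldn10, the splicing regulator Mbnl2 was at 0.01, the small GTPase Rap2a at -0.01, and both probes of the kinase gene Stk24 were within 0.01 of 0. The 4 probes of the cilium gene Dzip1 ranged from -0.45 to 0.29, and none was called.

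**Figure D4:**
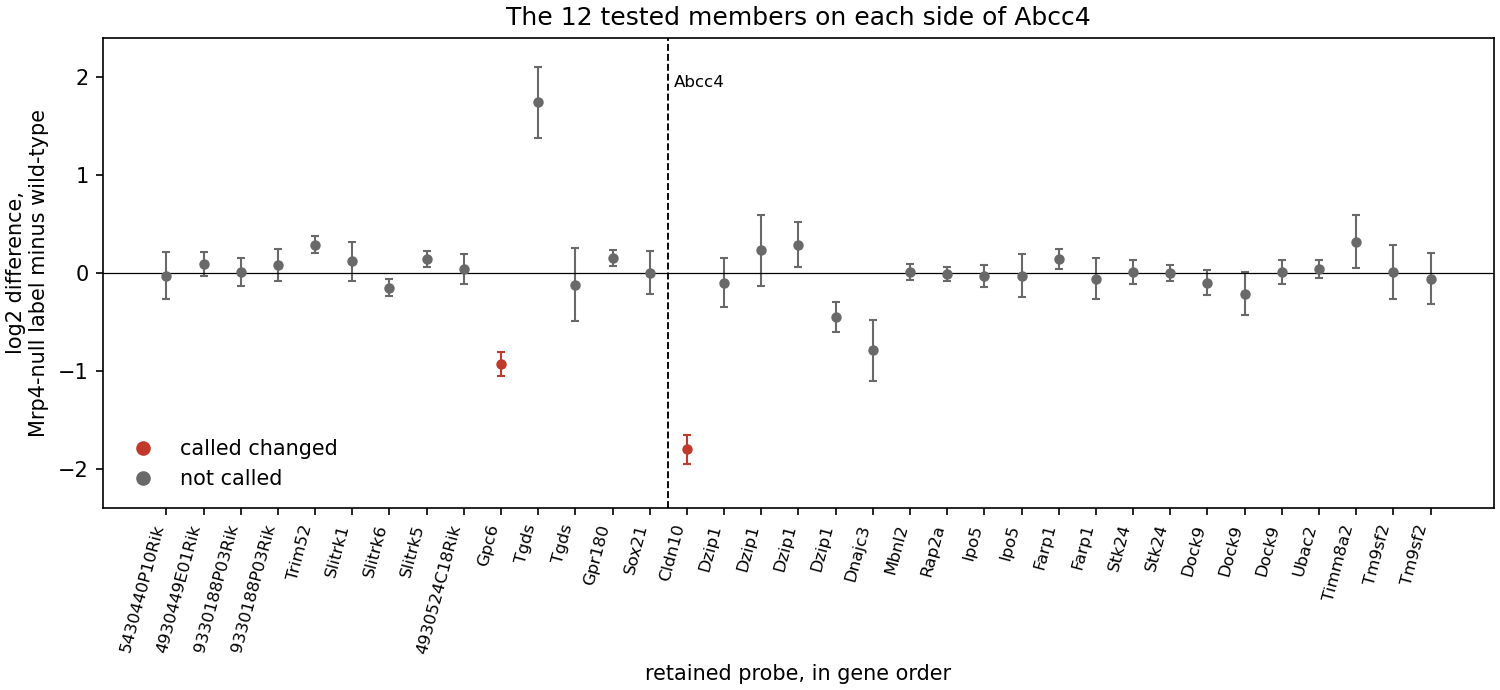
Log2 difference (y axis, Mrp4-null label minus wild-type) with its standard error for each retained probe of the 12 tested members on either side of Abcc4 (x axis, gene order, 4 arrays per genotype). Gpc6 and Cldn10 in red were called, the first Tgds probe at 1.74 and Dnajc3 at -0.79 were not, and the median absolute difference of the 35 probes was 0.10.

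Dnajc3, a chaperone of the endoplasmic reticulum, had the next largest difference beyond Abcc4. It was at 8.64, 7.35, 7.80 and 8.59 against 8.56, 9.22, 8.61 and 9.17, a difference of -0.79 (standard error 0.31, adjusted p = 0.659). The groups overlapped, since Mrp4-null arrays 1 and 4 lay above wild-type array 1. Among the arrays labelled Mrp4-null, numbers 2 and 3 were the lowest, as they were for both Tgds probes. The 75th percentile of the signal before normalization was lowest on Mrp4-null array 2 (678.4) and wild-type array 3 (706.4) and 780.6 to 1082.4 on the others, and the part of such array differences in the result was not tested.

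Tgds, which is named for its likeness to enzymes that act on sugar nucleotides, lay 3 tested genes before Abcc4 and had the largest difference among the member probes that were not called. Its first probe was at 9.45, 8.36, 8.80 and 9.52 on Mrp4-null-labelled arrays and at 7.04, 7.92, 6.49 and 7.72 on the wild-type arrays, a difference of 1.74 (standard error 0.36, adjusted p = 0.123). The groups did not overlap, but arrays of one label lay over a full log2 unit apart. Its second probe was at 7.50, 6.10, 6.67 and 7.42 against 6.58, 7.56, 6.56 and 7.48, a difference of -0.12 (standard error 0.37), with full overlap. The local pooled error test, which the methods name, did call the first probe (adjusted p = 1.28e-11).

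Within an array, the probes of 1 gene can be set against each other to show whether they changed equally. These genes were picked after their values had been seen, so no test is given. For Tgds, the first probe minus the second was 1.95, 2.27, 2.12 and 2.10 under the Mrp4-null label and 0.46, 0.37, -0.07 and 0.24 in wild-type, with means of 2.11 ± 0.13 and 0.25 ± 0.23 (SD, n = 4). The spread of this difference was smaller than that of either probe. For Xpo7, the called probe minus the other was -1.13, -1.07, -1.19 and -1.26 against -2.07, -2.20, -2.50 and -1.96. Its probes also changed unequally, with no overlap between the labels. For Polr3d, the difference was -0.79 ± 0.06 against -0.89 ± 0.12 (SD, n = 4), and the arrays overlapped.

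**Figure D5:**
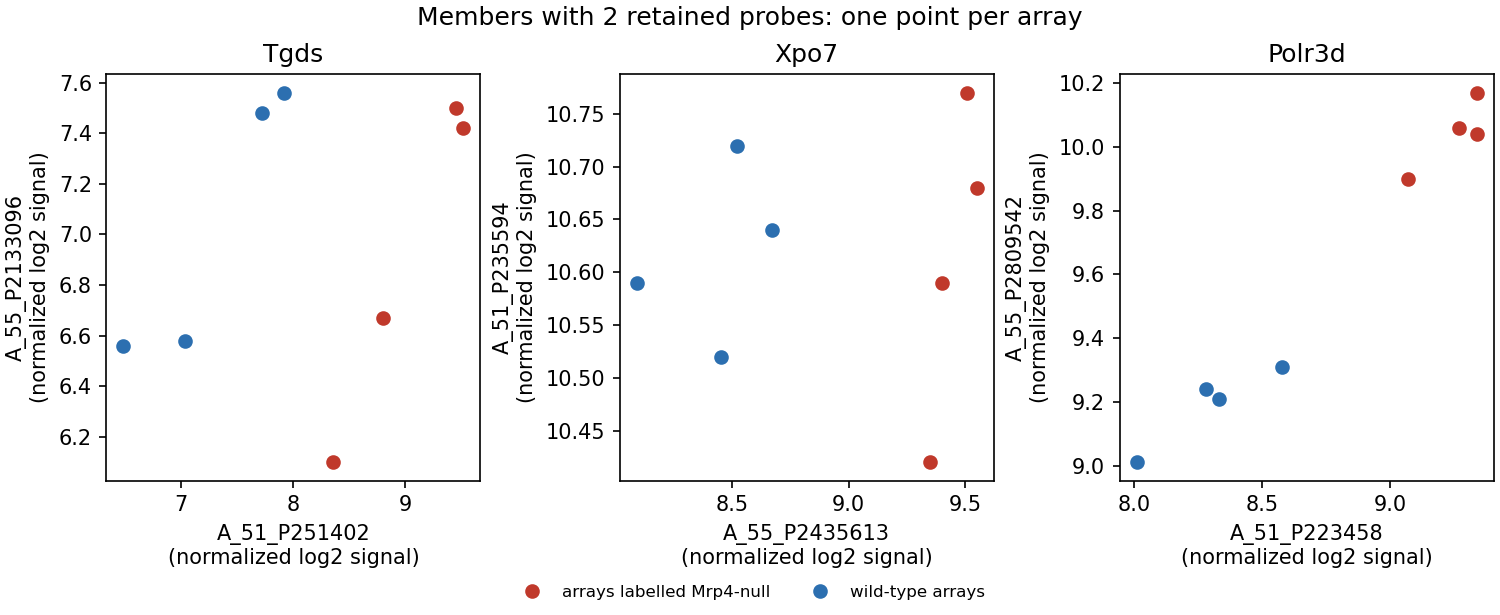
Normalized log2 signal of 1 probe (x axis) against the other probe (y axis) of Tgds, Xpo7 and Polr3d, with a point for each of the 4 arrays labelled Mrp4-null (red) and the 4 wild-type arrays (blue). For Tgds and Xpo7 the colours separate along the x axis only, and for Polr3d along both axes. The axes do not start at 0.

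Far from Abcc4, none of the 401 tested genes before Gm31896 was called, which follows from Gm31896 being the first called gene in order. Over all named genes the called share was 0.652%. Of the 593 probes in this stretch, 17 did not overlap (2.87%), against 4.79% of all retained probes. The largest of these was Serpine3, a member of the serine protease inhibitor family. It was at 9.08, 7.85, 8.47 and 9.19 against 7.34, 7.61, 6.92 and 6.31, a difference of 1.60 (standard error 0.35, adjusted p = 0.153). The groups only just separated, Mrp4-null array 2 being close to wild-type array 2, and the local pooled error test called it (adjusted p = 8.54e-10). Both probes of Cmtm5, a membrane protein of myelinating glia, were lower without overlap, one at -0.62 (adjusted p = 0.0776) and one at -0.52 (adjusted p = 0.0277), the latter under the fold threshold. With the adjusted p alone as the criterion, Cmtm5 and Sorbs3 would join the called genes, and 16 of the 786 member probes would pass (2.04%), against 0.601% of all retained probes. The noncoding RNA Gm28651 was at 0.74 (adjusted p = 0.496), and 1 of 4 probes of Ankrd28, a phosphatase regulator, at -0.53 (adjusted p = 0.227) while the others overlapped.

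The members were also grouped by what they are known to do, in lists chosen with earlier results known. Among photoreceptor and other retinal genes none was called. All 20 listed genes were retained with 34 probes, no probe was without overlap, where 0.652% of all named genes were called and 4.79% of all retained probes did not overlap, and the median difference was 0.030 with a range of -0.40 to 0.44. Among them were Cdhr1, a cadherin of photoreceptor discs, at 14.89, 14.71, 14.83 and 14.89 against 14.98, 14.96, 14.92 and 14.85. Its difference was -0.10 (standard error 0.08). The 3 probes of Rpgrip1, which anchors proteins at the photoreceptor cilium, were at -0.08, 0.01 and 0.03, Rp1l1 of the photoreceptor axoneme was at -0.09, and Opn4, the photopigment melanopsin, was at -0.08. Clu, the secreted chaperone clusterin, was at 0.13 (standard error 0.10).

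Of 27 retained synapse, channel and adhesion genes, 3 were lower, Pcdh17, Gpc6 and Cldn10, and 5 of 41 probes did not overlap (12.2%), where 0.348% of all named genes were called lower and 4.79% of all retained probes did not overlap. The median difference was 0.028. None of the 4 brightest genes of this group was called, with Dpysl2, a regulator of axon growth, at 0.00, the calcium channel subunit gene Cacna2d3 at 0.09 and the synaptic vesicle gene Synpr at -0.01. The 5 probes of Kcnma1, a calcium-activated potassium channel, were at 0.03, 0.11, 0.10, 0.30 and 0.17. Ptk2b, a calcium-activated kinase, was higher without overlap at 0.43 but was not called (adjusted p = 0.377).

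None of the 24 mitochondrial genes and none of the 26 retained ubiquitin and proteasome genes was called. Their medians were -0.028 and -0.033, and 5.71% and 2.50% of their probes did not overlap, against 4.79% of all retained probes. The mitochondrial channel gene Vdac2 was at -0.03 (standard error 0.09) and Pdhb, a subunit of pyruvate dehydrogenase, at -0.04. Protein folding and secretion genes had 1 call among 25, the higher Xpo7 probe, with a median of -0.009, and nucleic acid and cell cycle genes had 1 among 34, Polr3d, with a median of -0.022, where 0.652% of all named genes were called.

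Immune genes were retained least often, 17 of the 29 listed. Tnfrsf10b alone was called, higher, in a call that 7 of the 8 fits without an array lost, and 0.311% of all named genes were called higher. The median over their 22 probes was 0.272, against -0.009 over all retained probes. Lgals3, the lectin galectin-3 of macrophages and glia, was far higher on Mrp4-null array 3 than elsewhere. One of its probes was at 8.81, 8.64, 11.06 and 8.35 against 8.83, 9.02, 8.79 and 8.95, and the other was at 7.35, 6.85, 9.33 and 6.74 against 7.23, 7.51, 7.14 and 7.24. Without that array the differences of 0.32 and 0.29 became -0.30 and -0.29. Irf9, which carries the interferon signal into the nucleus, was also highest on that array, at 9.99 and 11.71 on its probes, and its differences of 0.28 and 0.43 were not called.

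By kind of gene, 11 of 494 retained protein-coding members and 2 of 37 retained long noncoding RNAs were called, against 0.652% of all named genes. Of 685 protein-coding and 114 long noncoding members on the array, the rest were not retained. Few genes of the chromosome's large clusters were detected in the retina. Of 39 olfactory receptor genes 5 were retained, of 7 granzyme genes 0, of 6 mast cell protease genes 1, and of 10 genes with a ribonuclease symbol 3. None of these was called.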

How the data were processed

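The scanner files that the authors deposited hold a processed signal intensity for every spot, which Agilent Feature Extraction 11.0.1.1 had background-subtracted and detrended. A table of values, also deposited, holds this intensity averaged per probe, and neither was normalized between arrays. Here R 4.3.3 and limma 3.58.1 were used. Spots marked as outliers (78 to 143 per array) were dropped, the remaining log2 intensity was averaged per probe, probes were filtered on background (3 or more measured arrays in the bright genotype, 2 or more in the other), and values were quantile normalized. Per array, 37343 to 39581 of 56605 probes were well above background and no spot was saturated. The number of arrays limits the precision. lmFit and eBayes compared the genotypes over all 8 arrays without covariates, with Benjamini-Hochberg adjustment over 37085 probes. A gene counted as called if any retained probe was. Names and order came from a RefSeq table of GRCm38.p6. For a probe at background throughout a genotype, the fold is a lower bound, set by the lowest signal well above background there. It rests on the main background correction. The fit was tested on simulated data. Members and lists were chosen with earlier results of these data known. One retina marker is not reported here. Named genes were all called members, the 12 tested members on each side of Abcc4, the 10 uncalled probes of largest difference without overlap, and up to 4 of the brightest genes of each list with Opn4, Cdhr1, Rpgrip1 and Rp1l1; others were named after their values were seen. Alternatives were other normalizations, normexp with an offset of 50, other filters, outlier spots kept, the deposited table, the methods' local pooled error test, limma with a trend and robust variances, a replicate block, no fold threshold, and leaving out arrays.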

Additional observations from a re-analysis of the deposited data

Results flagged for a closer look

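In 14 of 216 groups of 4 arrays of a named probe, 1 array lay far from the others, as its gap to the nearest array took more of their range than the critical value of Dixon's test for 4 values. Chance gives about 1 in 20 such groups. Among the called genes, Gpc6 was lowest on Mrp4-null array 2 (5.23 against 5.57 to 5.61, gap 0.890 of the range), and Fgf17 was highest on wild-type array 3 (2.45 against 1.64 to 1.68, gap 0.950), where it was not above background. Mrp4-null array 2 was also low for Vdac2 (gap 0.938) and Hnrnpc (0.830), and Mrp4-null array 3 was high for Mbnl2 (0.934), Clu (0.896), the noncoding RNA 9330188P03Rik (0.859) and Lgals3 (0.830). Wild-type array 3 was low for Vdac2 (0.926), Stk24 (0.877) and Dock9 (0.848), and wild-type array 1 was high for Irf9 (0.893), Rpgrip1 (0.872) and Oxsm (0.830). Except for Lgals3 at 11.06 against 8.35 to 8.81, these arrays differed from the others by less than 1 log2 unit.

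The array also holds 186 probes named only by a chromosome 14 coordinate of its design (mm9), which were not counted as members above. Of these, 114 were retained, 6 did not overlap and 2 were called, where all retained probes gave 4.79% and 0.545%. Probe A_30_P01033356, named chr14:33895294-33923644, was at 9.86, 9.69, 9.51 and 9.62 under the Mrp4-null label and at 8.93, 9.01, 8.68 and 8.47 in wild-type, a difference of 0.90 (standard error 0.14, adjusted p = 0.0269). Probe A_30_P01031079, named chr14:73746324-73749119, was at 5.82, 6.09, 6.03 and 5.99 against 8.24, 8.25, 8.12 and 8.49, a difference of -2.30 (standard error 0.10, adjusted p = 2.29e-05). In both the arrays of the genotypes separated fully, and no gene is named for either here. Neither was placed in the gene order, so the statements on blocks and stretches above do not cover them. The coordinate of A_30_P01033356 is lower than that of every promoter printed above, though in another build.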

How the results depend on the processing

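None of the 14 called probes changed sign under an alternative, while the fitted difference of 46 of 94 named probes that were not called did, Lgals3 and the second Tgds probe among them. The count of 13 called member genes stayed at 13 under cyclic loess, with outlier spots kept, with the deposited table and with an intensity trend. It was 11 after a shift to the 75th percentile, where 2 genes instead of 4 were called from Gm17116 to Slc39a14, and 11 without a filter on dim probes, with 3 higher. With normexp, 7 genes were called, 3 higher and 4 lower, with 3 from Piwil2 to Mtrf1, 1 in the block before Abcc4 and 0 beyond it, and Pdlim2, Piwil2, Fgf17, Npm2, Gpc6 and Cldn10 lost their calls. When probes had to be above background on all 8 arrays, 9 genes were called, 5 lower and 0 beyond Abcc4, because 4 called genes were no longer tested. The local pooled error test called 12 member genes, 10 of them among the 13, with 2 from Gm17116 to Slc39a14 and 1 in the blocks from Gm5795 to Rp1l1. Without a fold threshold 15 were called, 1 of them in those earlier blocks, where all retained probes gave 0.601%. Leaving out 1 array gave 10 to 12 genes, 3 to 5 higher and 7 to 8 lower, 3 to 4 and 4 to 6 in the blocks ending at Slc39a14 and Mtrf1, 1 to 2 before Abcc4, 58 to 99 probes without overlap and 4 to 6 called genes in the lists.

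Chosen after seeing the data, leaving out the 2 dimmest arrays gave 10 genes, 3 higher, and 119 probes without overlap. Leaving out the 2 wild-type arrays that lack Xist gave 6 genes, 2 higher and 4 lower, with 2, 3, 1 and 0 in the blocks from Gm17116 onward, 114 probes without overlap and 2 called genes in the lists. With fewer arrays, more probes separate by construction.

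With the sample number as a replicate block, 5 genes were called, 0 higher and 5 lower, with 2, 1 and 1 in the blocks before Abcc4 and 2 in the lists, and 71 of all probes. Whether samples with the same number share more than a number is not settled here. Their deviations from the group means correlated at -0.290, -0.685, 0.034 and 0.409. No Mrp4-null array correlated best with the wild-type array of its own number, but wild-type array 4 correlated best with Mrp4-null array 4. Such correlations over whole arrays cannot show whether the block is apt.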
